A study of Mus musculus with 12 samples.

Results

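Transcripts for 9 subunits of voltage-gated sodium channels were compared in the spinal cord of mice with a deletion in Gars. The genes were chosen by name from the deposited gene tables, with earlier results of these data known, and made up 9 of 38924 genes listed. Of these, 6 encode pore-forming alpha subunits (Scn1a, Scn3a, Scn7a, Scn8a, Scn9a and Scn10a) and 3 encode auxiliary beta subunits (Scn2b, Scn3b and Scn4b). RNA came from the whole spinal cord of 6 mice that carry the ETAQ deletion on 1 copy of Gars (ETAQ/+) and 6 wild-type (WT) mice. All 12 mice were aged 8 weeks and shared a mixed B6J;FVB background, and each genotype had 3 females and 3 males. Gars encodes glycyl-tRNA synthetase, and ETAQ/+ mice keep a normal allele beside the deleted one, which gene counts do not tell apart. Whole-cord RNA holds neurons, glia, vessels and any attached roots and meninges, so fewer cells of a type and less RNA per cell cannot be told apart.

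A voltage-gated sodium channel opens when the membrane depolarises and carries the inward current of the action potential. One large alpha subunit forms the pore and the voltage sensors, and beta subunits, which cross the membrane a single time, alter its gating, its delivery to the membrane and its attachment to other proteins. In the spinal cord, channels crowd at the axon initial segment and at nodes of Ranvier, where motor and other projection neurons start and renew their spikes. The cytoplasmic tail of the Scn4b protein can enter the open pore and is linked to resurgent current in fast-firing neurons.

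The sequences that follow set Scn4b, the subunit called between genotypes, beside the other beta subunits listed, to show how far short reads can tell them apart. For each beta gene, the last 60 coding bases are given, which encode the end of the cytoplasmic tail. Bases are in lower case and 5′ to 3′ on the coding strand, as in the transcripts of GENCODE M21 (GRCm38).
Scn4b (chr9:45150442-45150501, plus strand): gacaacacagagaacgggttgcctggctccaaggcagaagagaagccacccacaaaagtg
Scn2b (chr9:45126242-45126301, plus strand): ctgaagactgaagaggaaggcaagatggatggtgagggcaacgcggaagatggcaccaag
Scn3b (chr9:40288375-40288434, plus strand): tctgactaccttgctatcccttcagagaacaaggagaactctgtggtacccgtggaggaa

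The beta tails were distinct, and the longest coding run that Scn4b shared with Scn2b was 13 bases. The run shared by Scn4b and Scn3b was 10 bases. No sequence of 75 bases, the length of a read, of Scn2b, Scn3b, Scn4b, Scn7a or Scn8a occurred in a transcript of another gene. The share of 75-base sequences found elsewhere was 3.85% for Scn3a, 2.78% for Scn9a, 1.88% for Scn1a and 0.488% for Scn10a. Reads of those 4 genes could therefore be divided between relatives by the authors' software, for a small part of each transcript. Exact matches do not settle which reads were divided. Scn2b had expected counts that were not whole in mouse 1 (4436.07) and mouse 6 (3477.41), while those of Scn10a were whole in every mouse. In Scn9a, 1.41% of exon bases also overlapped Gm13629, an antisense gene.

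By the GENCODE M21 annotation of GRCm38, 4 of the 9 genes lie on chromosome 2 and all 4 are on the minus strand. They are Scn3a (ENSMUSG00000057182, chr2:65457118-65567627), Scn1a (ENSMUSG00000064329, chr2:66270778-66440840), Scn9a (ENSMUSG00000075316, chr2:66480080-66634962) and Scn7a (ENSMUSG00000034810, chr2:66673425-66784914). Another 4 lie on chromosome 9, where all 3 beta genes are on the plus strand. These are Scn3b (ENSMUSG00000049281, chr9:40269217-40291618), Scn2b (ENSMUSG00000070304, chr9:45117782-45130070), Scn4b (ENSMUSG00000046480, chr9:45138395-45154152) and, on the minus strand, Scn10a (ENSMUSG00000034533, chr9:119608456-119719322). Scn2b and Scn4b are neighbours with 8324 bases between them. Scn8a (ENSMUSG00000023033, chr15:100869858-101045938, plus strand) stands alone on chromosome 15.

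Each mouse gave 23595975 to 41452708 expected counts. Mice are named by the number in their titles. The libraries of mice 1 to 6 stood apart from those of mice 7 to 12, a division that the labels do not call a batch, and each set held 3 mice of each genotype. All WT mice of the first set were male and all WT mice of the second were female, so set and sex coincided in WT. Gars averaged 145 ± 5.79 normalised CPM in ETAQ/+ cords and 127 ± 4.95 in WT cords (SD, n = 6 each), which does not check the genotype labels because counts of both alleles are summed. Xist, expressed from the inactive X chromosome, had 400.5 to 476 normalised CPM in mice labelled female and 0.122 to 0.418 in mice labelled male, and the Y-linked gene Ddx3y had 0 in the females and 77.8 to 95.3 in the males. Normalised CPM is the count scaled to a common library size with TMM factors. Nothing in the labels says how the mice were divided among days or litters, so the p-values given measure the spread between these mice.

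The genotype comparison asks which subunit transcripts differ in ETAQ/+ cords. Only Scn4b passed the test among the 8 subunits tested, and it was lower in ETAQ/+ mice. A gene passed, or was called, when its Benjamini-Hochberg adjusted p over 17189 genes was below 0.05 in edgeR's quasi-likelihood test. None of the 5 alpha subunits tested was called (0 at an unadjusted p below 0.05, 0 in DESeq2 and 0 in limma-voom), and 1 of 3 beta subunits was. Over all genes, 330 (1.92%) were called, 230 of them lower (1.34%) and 100 higher (0.582%). With library totals in place of TMM, the split was 134 higher and 162 lower. The share of subunits called, 1 of 8, rests on a single gene. The median log2 fold change was -0.01 over the 8 subunits and 0.00 over all genes tested.

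Scn4b, the beta subunit with the pore-blocking tail, had 407 to 425 normalised CPM in ETAQ/+ mice (median 413), against 441 to 481 in WT mice (median 451). Every ETAQ/+ mouse lay below every WT mouse. Among all tested genes, the genotypes did not overlap for 345 (2.01%), with ETAQ/+ lower for 1.35% and higher for 0.657%, and the other 7 subunits tested all overlapped. The means were 415 ± 7.32 in ETAQ/+ and 455 ± 14.8 in WT (SD, n = 6 each), from 9819 to 18262 expected counts per mouse. Scn4b fell by 8.92% in ETAQ/+ cords, with a log2 fold change of -0.13 ± 0.03 (SE) and an edgeR adjusted p of 0.0224. The 95% interval ran from a change of -12.7% to one of -4.98%.

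The difference in Scn4b was of like size in each division of the mice. In females the log2 fold change was -0.14 ± 0.04 (SE), and in males it was -0.13 ± 0.04, with edgeR adjusted p of 0.292 and 0.281. It was -0.13 in mice 1 to 6 (adjusted p = 0.309) and -0.14 in mice 7 to 12 (adjusted p = 0.247), as contrasts within the edgeR fit of all 12 mice. Fitted alone with sex as covariate, mice 1 to 6 gave -0.13 and mice 7 to 12 gave -0.13. In these fits the sex term took up mouse 1, the sole female of its set, and mouse 11, the sole male of its set. Neither mouse therefore bore on the genotype estimate of its set. None of these divisions of the mice passed the threshold on its own, where the share of all genes called was 0.739% in females, 0.669% in males, 0.803% in mice 1 to 6 and 0.937% in mice 7 to 12. Of the 8 subunits, Scn4b alone had an unadjusted p below 0.05 in each of the 4. These 4 are not separate tests, since all are parts of the 12 mice that gave the call. The divisions by sex and by set had the same WT groups, and their ETAQ/+ groups differed only in the places of mice 1 and 11. With set added to sex as a covariate, Scn4b had an edgeR adjusted p of 0.0137 and was again the only subunit called, against 2.71% of all genes. The differences between sexes and between sets had edgeR adjusted p of 0.999 each, and 0 of 17189 genes were called for either (852 and 683 at an unadjusted p below 0.05).

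The Scn4b call was close to the threshold. It was lost without ETAQ/+ mouse 6 or 8 (edgeR adjusted p = 0.0530 and 0.0717), without WT mouse 10 or 12 (0.0710 and 0.0535), with library totals as the scale (log2 fold change -0.11, adjusted p = 0.125), and with limma on log2(TPM + 0.1) (-0.09, adjusted p = 0.604). The sign was negative under all 24 alternatives tried, and 15 of them kept the call. On the TPM scale, which divides by transcript length and gives every library the same total, Scn4b ranged from 142 to 160 in ETAQ/+ mice and from 143 to 176 in WT mice, so the genotypes overlapped. The authors listed 1 transcript length of 4940 bases for Scn4b in every mouse.

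**Figure D1:**
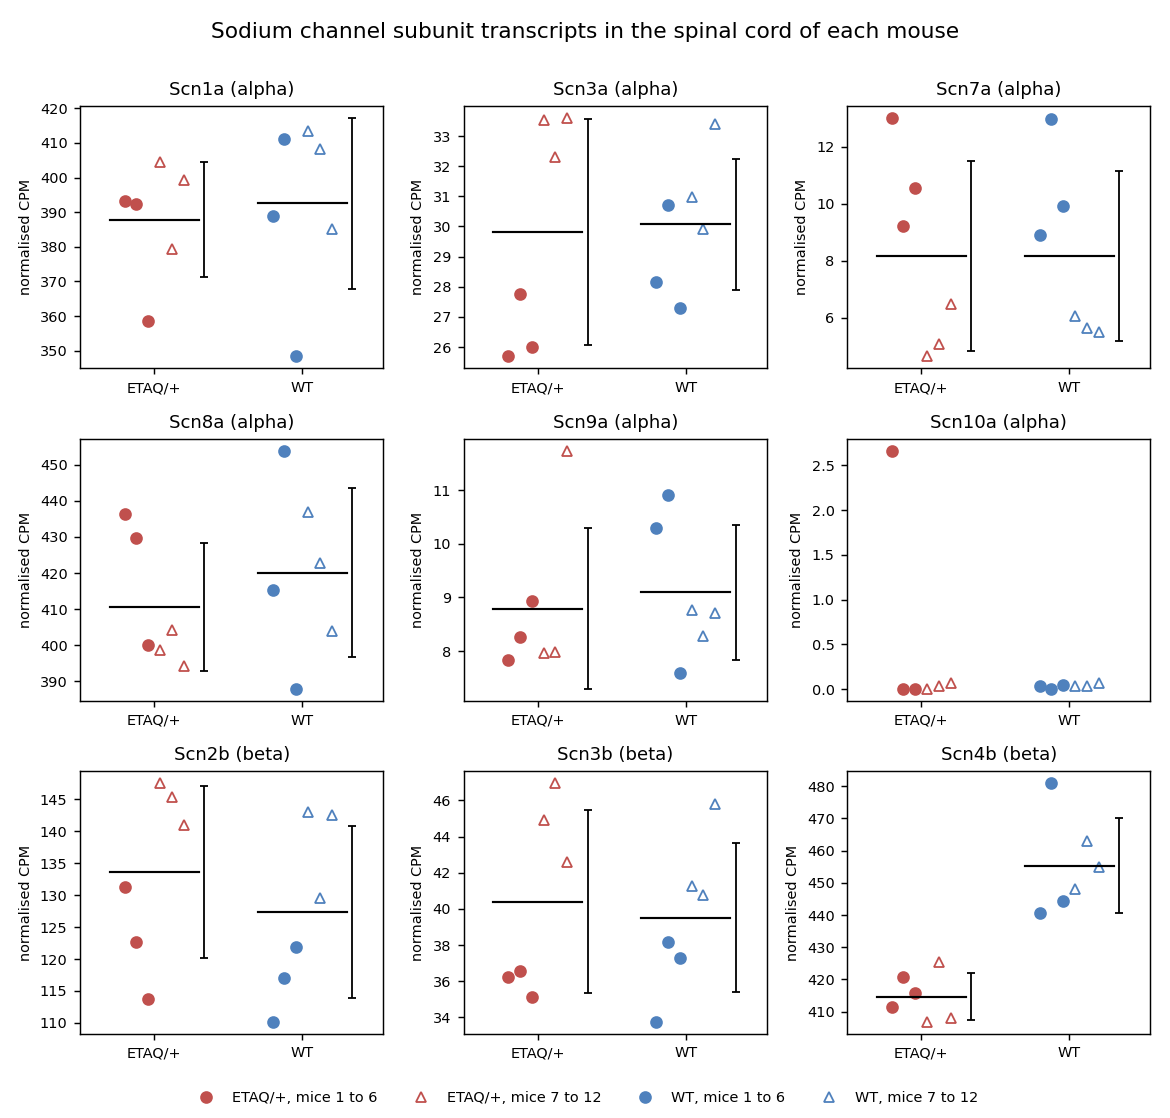
Normalised CPM (vertical axes, each with its own range that does not start at 0) of the 9 subunits in each mouse, ETAQ/+ left of WT, with filled circles for mice 1 to 6 and open triangles for mice 7 to 12; lines are means and bars are SD (n = 6), not drawn for Scn10a. The genotypes separate for Scn4b alone, at 407 to 425 in ETAQ/+ and 441 to 481 in WT, and Scn10a is above 1 in mouse 1 alone.

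Scn2b, the neighbour of Scn4b and a beta subunit that bonds covalently to alpha subunits, was not called. Its normalised CPM ran from 114 to 148 in ETAQ/+ mice (median 136) and from 110 to 143 in WT mice (median 126). These ranges covered each other for the most part. The log2 fold change was 0.07 ± 0.05 (SE, edgeR adjusted p = 0.707), with a 95% interval from -2.75% to 13.6%. Scn3b, a beta subunit that associates without that bond, had 35.1 to 46.9 in ETAQ/+ mice (median 39.6) and 33.8 to 45.8 in WT mice (median 39.5). Its log2 fold change was 0.03 ± 0.07 (SE, edgeR adjusted p = 0.922), and its interval ran from -7.45% to 13.2%.

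Scn1a and Scn8a were the most abundant alpha subunits, and neither differed detectably between genotypes. Scn8a encodes the main channel of mature nodes and initial segments, and Scn1a a channel prominent in fast inhibitory neurons. Scn1a ranged from 358 to 404 normalised CPM in ETAQ/+ mice (median 393) and from 348 to 413 in WT mice (median 399). Its log2 fold change was -0.02 ± 0.04 (SE, edgeR adjusted p = 0.939), with a 95% interval from -7.14% to 5.19%. The ranges of Scn8a overlapped in the same way. Scn8a had 394 to 436 in ETAQ/+ mice (median 402) and 388 to 454 in WT mice (median 419). The log2 fold change of Scn8a was -0.03 ± 0.04 (SE, edgeR adjusted p = 0.855), and the interval was -8.04% to 3.86%. For these genes, an ETAQ/+ decrease of more than 8.04% lay outside the intervals.

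Scn3a, an alpha subunit prominent in the embryonic and neonatal nervous system, had 25.7 to 33.6 normalised CPM in ETAQ/+ mice (median 30.04) and 27.3 to 33.4 in WT mice (median 30.3). The log2 fold change was -0.01 ± 0.07 (SE, edgeR adjusted p = 0.982), with an interval from -11.1% to 10.8%. In ETAQ/+ mice the values formed a low and a high cluster, which matched mice 1 to 6 and mice 7 to 12. Scn9a, known for its role in pain-sensing neurons, had 7.84 to 11.7 in ETAQ/+ mice (median 8.13) and 7.59 to 10.9 in WT mice (median 8.74). The log2 fold change of Scn9a was -0.05 ± 0.10 (SE, edgeR adjusted p = 0.920), and its interval was -16.4% to 11.5%. The highest ETAQ/+ value belonged to mouse 11, and the other ETAQ/+ mice reached 8.93.

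Scn7a encodes an atypical alpha subunit, NaX, which is reported to sense extracellular sodium and is known from glia, Schwann cells and some neurons. It had 4.63 to 13.02 normalised CPM in ETAQ/+ mice (median 7.85) and 5.49 to 13.0 in WT mice (median 7.48). The genotypes covered almost the same range. Its log2 fold change was 0.06 ± 0.27 (SE, edgeR adjusted p = 0.973), and its 95% interval of -31.8% to 59.3% was the widest of the 8. With set in the fit, the log2 fold change was -0.01 ± 0.11 (SE, edgeR adjusted p = 0.980), and the interval narrowed to -16.5% to 17.6%.

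Scn10a, the sodium channel of small sensory neurons of the dorsal root ganglion, failed the filter on low counts. It had 90 expected counts (2.66 normalised CPM) in mouse 1, an ETAQ/+ female. The other 5 ETAQ/+ mice had 3 counts in all and the 6 WT mice had 7, with no more than 2 in any mouse and 0 in 4 of the 11. A count of 0 allows up to 3 counts, or 0.0724 to 0.127 CPM depending on the library, and this limit covers counting error only. No genotype difference is given for Scn10a, since a single mouse carried it.

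Genes of sensory ganglia were also high in mouse 1. Scn11a, a further sodium channel of ganglion neurons, had 65 counts there and at most 6 in any other mouse. The heat-gated channel gene Trpv1 had 15 counts in mouse 1 and at most 6 elsewhere, Mrgprd had 10 against at most 2, and Prdm12 had 15 against at most 3. These 4 genes were singled out after their values were seen. Of the 12 ganglion markers listed, 5 were highest in mouse 1. The summed level of the list was 83.8 normalised CPM there, 73.3 to 84.7 in the other ETAQ/+ mice and 105 to 117 in WT mice. This sum includes Prph and Calca, which were called lower in ETAQ/+ mice. The part of the ganglion genes in the Scn10a value was not tested. Without mouse 1, the Scn4b log2 fold change kept its sign and its call.

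The fits of sex and of transcript length called no subunit. For females against males with genotype as a covariate, edgeR called 16 genes (0.0931%) and 0 of 8 subunits, of which 3 had an unadjusted p below 0.05. The females' level of Scn2b exceeded the males' by a log2 difference of 0.21 ± 0.05 (SE, edgeR adjusted p = 0.170), that of Scn3b by 0.20 (0.203) and Scn9a had a difference of -0.22 (0.279). Of the 6 females, 5 were among mice 7 to 12. With set in the fit, edgeR called 9 genes (0.0524%) and 0 subunits (1 at an unadjusted p below 0.05, Scn9a). In that fit the difference was -0.36 ± 0.11 for Scn9a, 0.08 ± 0.05 for Scn2b and 0.02 ± 0.06 for Scn3b (SE). The transcript length that the authors' software weights by isoform share was tested with limma for 10903 genes whose length varied. It differed by genotype for 3 genes (0.0275%) and for 0 of the 5 subunits tested (0 at an unadjusted p below 0.05).

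**Figure D2:**
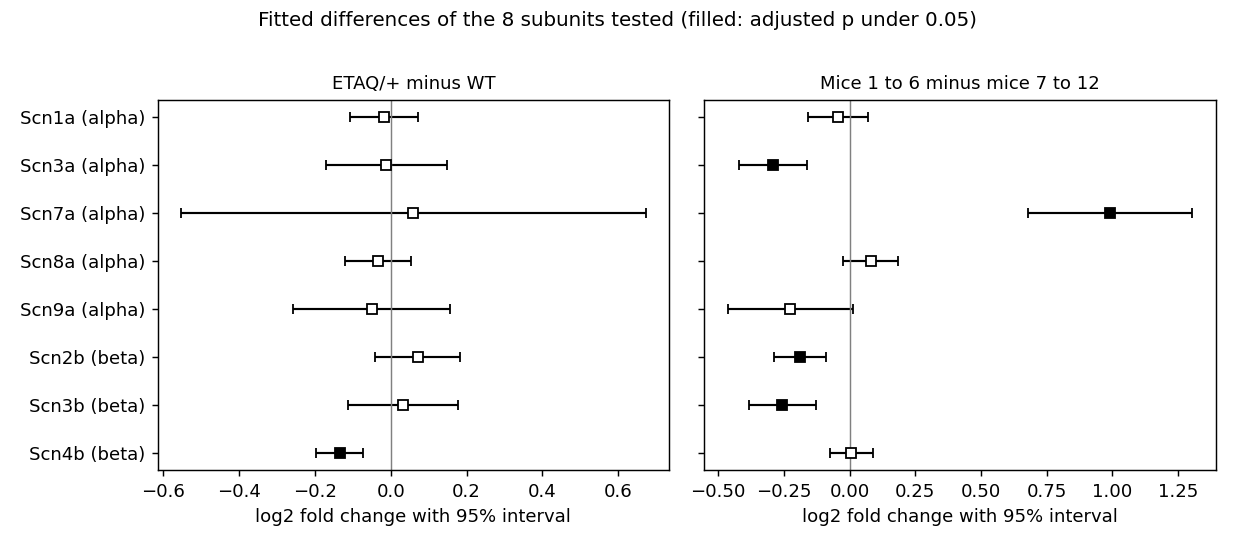
Log2 fold changes (horizontal axes) with 95% intervals of the 8 tested subunits (vertical axis, alpha above beta) from edgeR, for ETAQ/+ minus WT on the left and for mice 1 to 6 minus mice 7 to 12 on the right; filled squares have an adjusted p below 0.05. Scn4b at -0.13 is the only filled square on the left, and Scn7a at 0.99 is the largest of 4 on the right.

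More subunits were called between the sets of mice than between genotypes. With sex and genotype in the fit, 4 of 8 subunits differed between mice 1 to 6 and mice 7 to 12 in edgeR, against 1356 (7.89%) of all genes. Scn7a was higher in mice 1 to 6, where 848 (4.93%) of all genes were higher. Scn3a, Scn3b and Scn2b were lower in mice 1 to 6, where 508 (2.96%) of all genes were lower. DESeq2 called the same 4 subunits.

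Scn7a ran from 8.92 to 13.02 normalised CPM in mice 1 to 6 and from 4.63 to 6.48 in mice 7 to 12. The sets did not overlap in either genotype. The means were 10.8 ± 1.82 and 5.56 ± 0.661 (SD, n = 6 each), and the log2 difference was 0.99 ± 0.15 (SE, edgeR adjusted p = 0.000921). Without mouse 1 the Scn7a difference was 0.57 (adjusted p = 0.172, edgeR), without mouse 11 it was 1.37, and without any other single mouse it was 0.95 to 1.02. Scn3b had 33.8 to 38.2 in mice 1 to 6 and 40.7 to 46.9 in mice 7 to 12, also without overlap (log2 difference -0.26 ± 0.06, adjusted p = 0.0153, edgeR). Over all genes, the sets did not overlap for 1522 (8.85%).

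Scn3a and Scn2b overlapped slightly between the sets. Scn3a had 25.7 to 30.7 normalised CPM in mice 1 to 6 and 29.9 to 33.6 in mice 7 to 12 (log2 difference -0.29 ± 0.06, edgeR adjusted p = 0.00900). Scn2b had 110 to 131 and 129 to 148 (log2 difference -0.19 ± 0.05, edgeR adjusted p = 0.0207). Scn1a, Scn8a, Scn9a and Scn4b were not called, with log2 differences of -0.05, 0.08, -0.23 and 0.01. Once sex was in the fit, set could be told apart from sex only through the ETAQ/+ mice, since set and sex coincided in WT. Without mouse 1, which was the sole female of its set, 163 genes and 0 subunits were called, and without mouse 11, the sole male of its set, 278 genes and 1 subunit (Scn7a).

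Markers of other tissues moved with the sets, where 4.93% of all genes were called higher and 2.96% lower in mice 1 to 6. Of 6 Schwann cell genes, 5 were higher in mice 1 to 6. The summed level of all 6 was 1236 to 1698 normalised CPM there against 874 to 1002 in mice 7 to 12. Mal, the gene not called, made up most of this sum (mean 861 in mice 1 to 6 and 791 in mice 7 to 12). Of 6 fibroblast genes, 5 were higher in mice 1 to 6 (summed level of all 6, 200.2 to 391 against 111 to 134), as were all 8 skeletal muscle genes (59.6 to 970 against 0.984 to 1.81) and all 5 red blood cell genes (1890.3 to 3511 against 143 to 268). Among 7 genes of inhibitory neurons, 2 were lower in mice 1 to 6, which were the GABA synthesis genes Gad1 (log2 difference -0.24, edgeR adjusted p = 0.00157) and Gad2 (-0.36, adjusted p = 0.00155). The part of these tissues in the subunit differences was not tested. Scn4a, the sodium channel of skeletal muscle, was also higher in mice 1 to 6, at 0.327 to 3.79 normalised CPM against 0.0323 to 0.184.

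Alpha subunits were set against beta subunits on the TPM scale, where levels of different genes can be compared. Scn4b was the most abundant of the 9 subunits at 155 ± 10.04 TPM (SD, 12 mice), followed by Scn1a at 86.2 ± 6.76, Scn8a at 65.0 ± 3.72 and Scn2b at 50.8 ± 6.69. Scn3b had 18.9 ± 3.07 TPM, Scn3a 6.65 ± 0.835, Scn9a 2.27 ± 0.409 and Scn7a 1.92 ± 0.714. Scn10a was at 0.740 TPM in mouse 1 and far lower in the other mice. The ranges of neighbours in this order did not meet, except for 2 pairs. Scn8a and Scn2b overlapped, although Scn8a was higher in 12 of 12 mice, and Scn9a and Scn7a overlapped, with Scn9a higher in 8 of 12.

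The summed alpha level was 163 ± 8.89 TPM in ETAQ/+ cords and 161 ± 13.0 TPM in WT cords (SD, n = 6 each). The summed beta level was 222 ± 15.3 TPM in ETAQ/+ and 227 ± 18.1 TPM in WT. Beta subunits held 57.7% ± 0.961 of the sum of both in ETAQ/+ mice (56.3% to 59.2%) and 58.5% ± 1.04 in WT mice (57.2% to 59.8%). The ranges overlapped, and the difference of -0.77 percentage points was smaller than the SD of either genotype. Mouse 1 had the lowest beta share of all.

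Within the alpha sum, Scn1a took 53.2% ± 1.46 in ETAQ/+ and 53.1% ± 1.11 in WT (SD, n = 6 each). Scn8a took 40.1% ± 1.61 in ETAQ/+ and 40.1% ± 0.878 in WT, and the other 4 alpha genes shared the rest. The makeup of the alpha sum was thus nearly the same in both genotypes. Within the beta sum, Scn4b took 67.6% ± 2.52 in ETAQ/+ and 70.6% ± 2.24 in WT, Scn2b 23.6% ± 1.68 and 21.4% ± 1.73, and Scn3b 8.74% ± 0.939 and 7.98% ± 0.742. These shares overlapped between genotypes. Between the sets, Scn4b took 71.02% ± 1.89 of the beta sum in mice 1 to 6 and 67.2% ± 2.09 in mice 7 to 12.

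**Figure D3:**
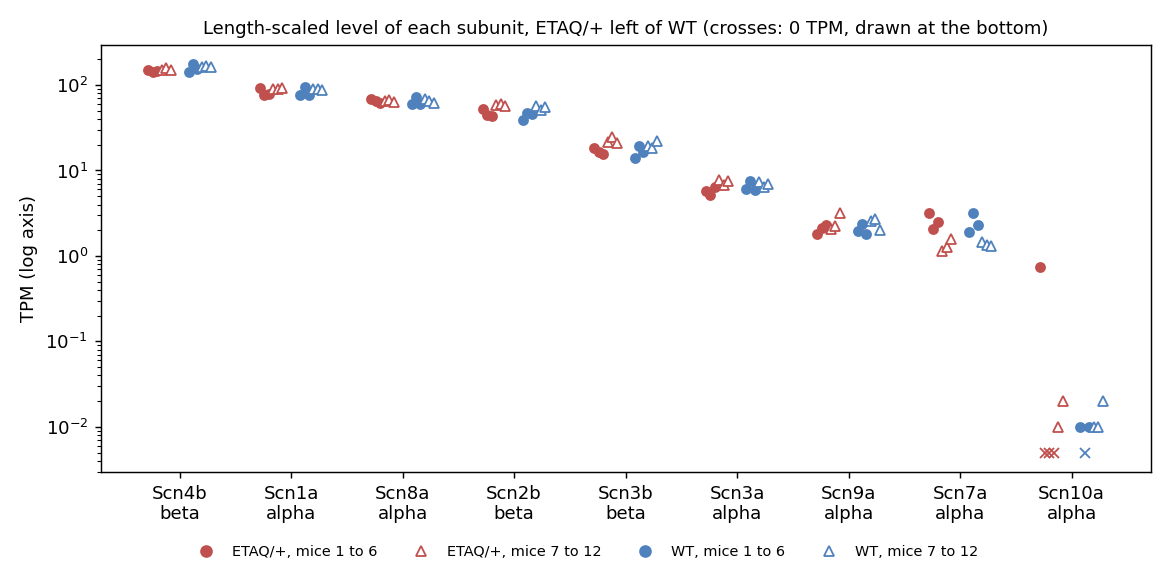
TPM of each subunit (log vertical axis) in each mouse, ordered by mean level, ETAQ/+ left of WT, with filled circles for mice 1 to 6 and open triangles for mice 7 to 12; crosses at the bottom stand for 0 TPM. Mean levels fall from 155 TPM for Scn4b to 1.92 TPM for Scn7a, and Scn10a reaches 0.740 in mouse 1.

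**Figure D4:**
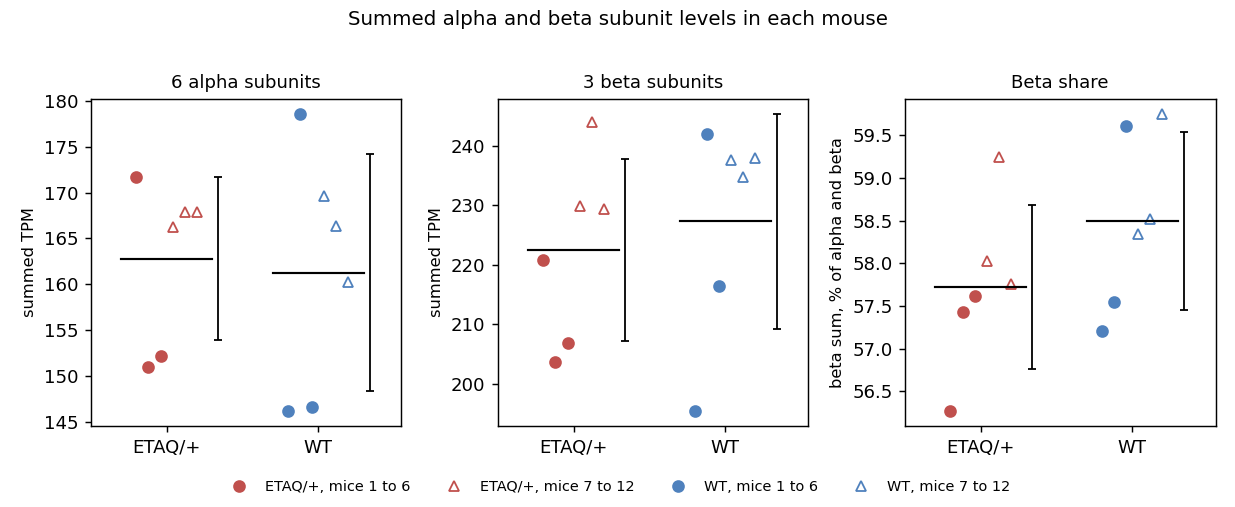
Summed TPM of the 6 alpha subunits, summed TPM of the 3 beta subunits, and the beta sum as a percent of both (vertical axes, not from 0) in each mouse, ETAQ/+ left of WT, with filled circles for mice 1 to 6 and open triangles for mice 7 to 12; lines are means and bars are SD (n = 6). The genotypes overlap in all 3 panels, with mean beta shares of 57.7% in ETAQ/+ and 58.5% in WT.

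Of the other 5 sodium channel subunits, 4 were tested for genotype and 0 were called, against 1.92% of all genes (edgeR). There were 0 at an unadjusted p below 0.05 and 0 in DESeq2. Scn4a had a log2 fold change of -1.36 ± 0.97 (SE, edgeR adjusted p = 0.707).

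Genes that handle sodium channels showed no genotype call either. Of all genes tested, 1.92% were called, so 0 calls in lists this short say little about these genes. The FGF homologous factors bind the alpha subunit tail, and 0 of 4 were called (0 at an unadjusted p below 0.05). Of 10 regulators of channel traffic, 0 were called (1 unadjusted), and S100a10, a partner of Scn10a protein, had the smallest p (log2 fold change -0.31 ± 0.10, SE, edgeR adjusted p = 0.219). Of 15 genes of the axon initial segment and node, which include the anchors Ank3 and Sptbn4, 0 were called (2 unadjusted). The smallest p there was that of Cntn2 (0.09 ± 0.03, edgeR adjusted p = 0.246). Of 3 genes tested of the sodium leak channel complex, 0 were called (0 unadjusted). DESeq2 and limma-voom called 0 genes in each of these 4 lists. Between the sets of mice, 3 of the 4 FGF homologous factors were lower in mice 1 to 6, against 2.96% of all genes.

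Several motor neuron markers were lower in the same ETAQ/+ cords in which Scn4b was lower. Of 11 motor neuron genes tested, 6 were called lower and 0 higher (edgeR), against 1.34% and 0.582% of all genes. The list's summed level was 228 to 295 normalised CPM in ETAQ/+ mice against 437 to 519 in WT mice. Ahnak2 weighs much in this sum (mean 73.3 in ETAQ/+ and 160 in WT). The 5 genes not called were Slc5a7 (log2 fold change -0.28), Mnx1 (-0.14), Isl1 (-0.02), Mmp9 (-0.08) and Esrrb (0.18). Chodl, a gene of fast motor neurons, had 11.7 to 14.7 normalised CPM in ETAQ/+ mice and 36.02 to 52.2 in WT mice, with no overlap (log2 fold change -1.84 ± 0.07, SE). Chat, which makes acetylcholine, and the intermediate filament gene Prph fell by 0.64 and 0.84 on the log2 scale, and the transporter gene Slc10a4 by 0.86. Of 12 general neuron genes, 1 was lower (Stmn2, -0.30 ± 0.03) and 0 were higher in edgeR, while 7 had an unadjusted p below 0.05 and DESeq2 called 3. The summed level of these 12 genes was 6552 to 6964 normalised CPM in ETAQ/+ mice and 7098 to 7293 in WT mice, without overlap. Abundant genes weigh most in this sum, above all Snap25 (mean 2069 in ETAQ/+ and 2229 in WT). Taken singly, only Stmn2 and Tubb3 of the 12 did not overlap, against 2.01% of all genes tested. Tubb3, a neuronal tubulin singled out after its values were seen, had 358 to 387 in ETAQ/+ and 395 to 418 in WT (log2 fold change -0.10 ± 0.03, SE, edgeR adjusted p = 0.0962). Of 9 sensory ganglion genes tested, 2 were higher (P2rx3 and Avil) and 2 lower (Calca and Prph, both also on the motor neuron list). Of 9 astrocyte genes, 2 were higher and 1 lower, and of 7 inhibitory neuron genes 0 were called (0 unadjusted, 0 in DESeq2). Oligodendrocyte, Schwann cell, fibroblast, muscle and red blood cell genes had 0 genotype calls in edgeR (2 oligodendrocyte genes and 1 Schwann cell gene at an unadjusted p below 0.05), and DESeq2 called 1 Schwann cell gene. The part of the motor neuron and general neuron markers in the Scn4b difference was not tested.

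The genes whose level followed that of Scn4b most closely over the 12 mice were Cacna2d3 (Pearson r = 0.984), Mpp6 (0.950), Cep19 (0.949), 3632451O06Rik (0.947) and Kctd17 (0.943). These were the highest of 17189 genes, on log2 normalised CPM, and all share the same 12 libraries and their scaling. Scn4b was used here because it was called between genotypes, so genes that follow it closely tend to differ by genotype as well. Cacna2d3 averaged 71.1 normalised CPM in ETAQ/+ and 78.7 in WT, a log2 fold change of -0.15 with an edgeR adjusted p of 0.0167. Given how it was picked, this is not a separate result.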

How the data were processed

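RNA-seq of polyadenylated RNA, 75-base paired reads, was deposited as 1 gene table per mouse. Reads were aligned with Bowtie2 2.2.0 and quantified with RSEM 1.2.12, per the submitters' processing notes. Per the file headers, each table holds RSEM's expected counts, which the authors did not normalise and of which 15.4% of deposited values are not whole. The deposited TPM and FPKM values are the authors' own, scaled within each library by effective length and total, and FPKM was not used. Per the file headers, the authors also list a transcript length weighted by isoform share. The genome build, annotation and strand setting are not given in the sources used here.

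Expected counts were rounded, filtered with filterByExpr over genotype and sex, and scaled with TMM (factors 0.975 to 1.02), which left 17189 genes. The main test was edgeR 4.0.16 (R 4.3.3), the robust quasi-likelihood test with sex as covariate and Benjamini-Hochberg adjustment over all genes at 0.05. Log2 transcript lengths were tested with limma 3.58.1. DESeq2 1.42.0, limma-voom and limma on log2(TPM + 0.1) and log2(TPM + 1) were alternatives, as were other scalings, no filter, covariates, each set of mice alone and each mouse left out. The edgeR and limma fits were tested on simulated data. Each mouse's depth was 23595975 to 41452708 counts, so 3 counts, the limit that a count of 0 allows, are 0.0724 to 0.127 CPM.

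Mice were grouped by the genotype and sex in their labels. All 9 members are reported. From 15 other lists the text gives counts and up to 4 called genes, or up to 2 with the smallest p where none was called, and 5 genes most correlated with each called member. Some further list genes are named beside these. The members and lists were chosen with earlier results of these data known. Some genes and sequences are not reported here. Of 132 list entries, 3 had no match in the tables. Positions and sequences come from GENCODE M21 (GRCm38), which held 96.6% of the gene IDs. Because the authors' annotation is not given, these positions describe the genes and not necessarily the models that were counted.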

Additional observations from a re-analysis of the deposited data

Results flagged for a closer look

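Within each genotype, the highest and lowest mouse were compared with the rest for 18 groups of 6 mice, and chance marks about 1 in 20 such groups. In ETAQ/+ mice, Scn10a had 2.663 normalised CPM in mouse 1, far from the other 5. In the same genotype, Scn9a had 11.73 normalised CPM in mouse 11, also far from the others, of which the highest was 8.93. In WT mice no subunit had a mouse that far from its group.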

How the results depend on the processing

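Scn4b kept its negative sign under all 24 alternatives, with log2 fold changes of -0.14 to -0.09 and a call in 15. The 7 other tested subunits were called under none of theirs. Of those 7, only Scn2b kept 1 sign throughout (0.02 to 0.11).

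The 330 genotype calls became 506 with DESeq2, 160 with log2(TPM + 0.1), 162 with log2(TPM + 1), 92 in mice 1 to 6 fitted alone and 112 in mice 7 to 12 fitted alone. Leaving out 1 mouse gave 236 to 315. The single subunit called became 0 with library totals, with both TPM fits and in each set alone, and 0 to 1 with 1 mouse left out. The fits of each set alone were chosen after seeing the data, as were all leave-one-out and covariate alternatives of the set difference.

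The 1356 genes that differed between the sets became 3531 without the sex covariate and 163 to 1560 with 1 mouse left out, and the 4 subunits became 0 to 4. The 3 genes with a length difference became 1 among genes with a mean of at least 10 TPM, and 1 to 6 with 1 mouse left out. The 16 genes that differed by sex became 9 with set in the fit. The cause of these changes was not tested. The difference in beta share was -0.95 percentage points on summed normalised CPM and -1.08 to -0.48 with 1 mouse left out.

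Scn10a did not pass the filter on low counts in the tests reported, as no mouse other than mouse 1 had more than 2 counts. Scn7a and Scn9a, at a few CPM, had the widest genotype intervals among the tested subunits, with or without set in the fit. No paired analysis was possible because the mouse numbers run from 1 to 12 and no number occurs in both genotypes.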
